A study of Homo sapiens with 18 samples.

Results

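The aldehyde dehydrogenase 1A genes and a group of genes used as markers of cancer stem cells were examined in OVCAR-3 cells, an established high-grade serous ovarian cancer line. The 10 genes were ALDH1A1, ALDH1A2, ALDH1A3, PROM1, CD44, CD24, SOX2, SOX9, KLF4 and KIT. They were taken as a list and found by matching the Ensembl identifiers of both count tables to gene symbols, and all 10 were present among the 58825 genes counted. Cells kept in stripped medium received DMSO as vehicle, 1 µM i-BET858 or 1 µM i-BET151, and poly-A RNA was sequenced after 4 or 24 h in 3 replicates of each of the 6 groups. Both drugs inhibit the bromodomain and extra-terminal (BET) proteins, readers of acetylated histones that drive transcription, and the study set out to learn how the effects of i-BET858 compare with those of i-BET151. OVCAR-3 is a single line, so the spread given here is between cultures of that line and not between tumours.

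The 18 libraries held 27323969 to 46299994 counts, with a median of 32267434. Levels are given as CPM, that is counts relative to the TMM-scaled library size, and as CPM per kb of exon where genes are set beside each other. The libraries of replicate 3 stood apart from the others in all groups, with 17817 to 20642 genes that had a count against 23674 to 24947 in replicates 1 and 2, and their labels name the source differently. Where a call on the 10 genes came out differently in replicates 1 and 2 alone, the value there is also given. The summed level of 8 serous epithelial markers was 6620 to 11900 CPM and all 8 were detected in each group, whereas the summed level of 4 immune markers did not exceed 0.752 CPM. In bulk RNA, fewer cells carrying a transcript and less RNA per cell cannot be told apart.

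Aldehyde dehydrogenases oxidise aldehydes, and the ALDH1A enzymes turn retinaldehyde into retinoic acid, the ligand of the retinoic acid receptors. High aldehyde dehydrogenase activity, often together with surface CD133 (the product of PROM1), CD44 or the receptor KIT, is widely used to sort cells with tumour-initiating capacity from ovarian cancers, and low or absent CD24 is used in the same way in breast cancer. SOX2 and KLF4 are transcription factors of the set that reprograms somatic cells to pluripotency, and SOX9 is a related factor of progenitor cells in many epithelia.

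The genes lie at separate sites on GRCh38 apart from shared chromosomes. ALDH1A1 spans chr9:72900671-73080442, ALDH1A2 chr15:57953424-58497866 and ALDH1A3 chr15:100877714-100916626. PROM1 spans chr4:15963076-16084378, KIT chr4:54657267-54740783, CD44 chr11:35138882-35232402 and CD24 chr6:106969831-106975627. SOX2 spans chr3:181711925-181714436, SOX9 chr17:72121020-72126416 and KLF4 chr9:107484852-107490482. Exons of ALDH1A2, ALDH1A3, CD44 and KLF4 overlap those of a gene on the opposite strand, and exons of ALDH1A3 and PROM1 those of a gene on the same strand. The strand setting of the counting is not given in the sources used here, so how reads in these overlaps were assigned or dropped is not known. Reads of CD24 may also match its pseudogenes, whose summed counts were 0.888 to 1.408% of those of CD24 in replicates 1 and 2 and 3.993 to 5.468% in replicate 3.

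Sequences upstream of the start site were available from RefSeq (GRCh38.p14) for 9 of the 10 genes, in 15 windows of 250 bases, with SOX9 as the gene not matched. Those of 4 genes are shown because the results turn on them: KLF4 rose at 4 h, SOX2 and KIT rose at 24 h, and PROM1 fell at 24 h. They are given 5′ to 3′ on the strand of the gene, for KLF4 at chr9:107489770-107490019 on the minus strand, for SOX2 at chr3:181711675-181711924 on the plus strand, for KIT at chr4:54657707-54657956 on the plus strand and for PROM1, the farthest upstream of its 4 windows, at chr4:16084024-16084273 on the minus strand. Positions are counted from the RefSeq start site of each window, which need not be the end of the span given above. The windows of KLF4, KIT and PROM1 lie inside those spans. Capitals mark matches on either strand to 4 short motifs. The TATA box was searched as TATAAA and the CCAAT box by the letters of its name. The GC box was searched as GGGCGG. The E-box was searched in its palindromic form, which is CACGTG.
KLF4: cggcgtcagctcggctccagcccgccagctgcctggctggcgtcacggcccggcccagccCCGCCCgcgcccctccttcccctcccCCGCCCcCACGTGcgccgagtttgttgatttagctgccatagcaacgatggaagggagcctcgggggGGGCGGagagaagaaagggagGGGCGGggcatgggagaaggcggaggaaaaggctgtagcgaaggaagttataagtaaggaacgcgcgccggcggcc
SOX2: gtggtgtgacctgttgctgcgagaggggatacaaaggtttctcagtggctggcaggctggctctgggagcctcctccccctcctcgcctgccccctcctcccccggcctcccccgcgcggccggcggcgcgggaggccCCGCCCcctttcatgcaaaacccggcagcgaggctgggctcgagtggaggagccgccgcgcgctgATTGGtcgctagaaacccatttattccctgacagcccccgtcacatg
KIT: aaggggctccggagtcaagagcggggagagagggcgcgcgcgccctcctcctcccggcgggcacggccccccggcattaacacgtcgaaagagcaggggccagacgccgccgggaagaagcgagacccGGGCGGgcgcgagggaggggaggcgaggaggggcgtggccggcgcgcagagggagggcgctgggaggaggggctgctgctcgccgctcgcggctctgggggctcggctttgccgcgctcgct
PROM1: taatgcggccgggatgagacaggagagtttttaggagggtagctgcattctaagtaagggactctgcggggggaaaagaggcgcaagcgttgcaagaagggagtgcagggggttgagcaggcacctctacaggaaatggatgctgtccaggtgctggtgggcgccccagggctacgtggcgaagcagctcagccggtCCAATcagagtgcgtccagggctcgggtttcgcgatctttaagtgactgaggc

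The KLF4 window held 4 GC boxes, at -190, -164, -97 and -76 from the start site, and an E-box at -157, which overlaps none of them. The SOX2 window held a GC box at -112 and a CCAAT box at -47, both on the opposite strand. The KIT window held a GC box at -122 and the PROM1 window a CCAAT box at -53. Over all 35116 windows of this length, 42.6% held a GC box, 32% a CCAAT box, 10.7% a TATA box and 6.34% an E-box, and none of the 15 windows of these genes had a TATA box. These matches describe the letters in the windows and no binding was measured.

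In cells given DMSO, the levels of the 10 genes spanned more than 3 orders of magnitude and fell into a higher and a lower group. At 4 h, CD24 stood highest at 229 to 252 CPM per kb. SOX2 followed at 35.1 to 39.5, ALDH1A1 at 20 to 31.4, SOX9 at 6.68 to 8.51 and KLF4 at 3.89 to 5.61 CPM per kb, and none of these neighbours overlapped in range. CD44 (0.292 to 0.436), PROM1 (0.335 to 0.367) and KIT (0.198 to 0.415 CPM per kb) overlapped with each other. ALDH1A2 at 0.0849 to 0.155 and ALDH1A3 at 0.0823 to 0.14 CPM per kb were the lowest and were not separated. At 24 h with DMSO the first 5 genes kept this order, with SOX9 and KLF4 now overlapping, and the ranges of the other 5 overlapped from neighbour to neighbour. By the mean, PROM1 moved from 7th place with DMSO to last with either drug at 24 h. It lay at 0.0112 to 0.0157 CPM per kb with i-BET858 and 0 to 0.0163 with i-BET151. These ranges overlapped with those of ALDH1A3 (0.0104 to 0.0603 and 0 to 0.0595), and with i-BET151 also with that of ALDH1A2 (0.0107 to 0.0421).

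**Figure D1:**
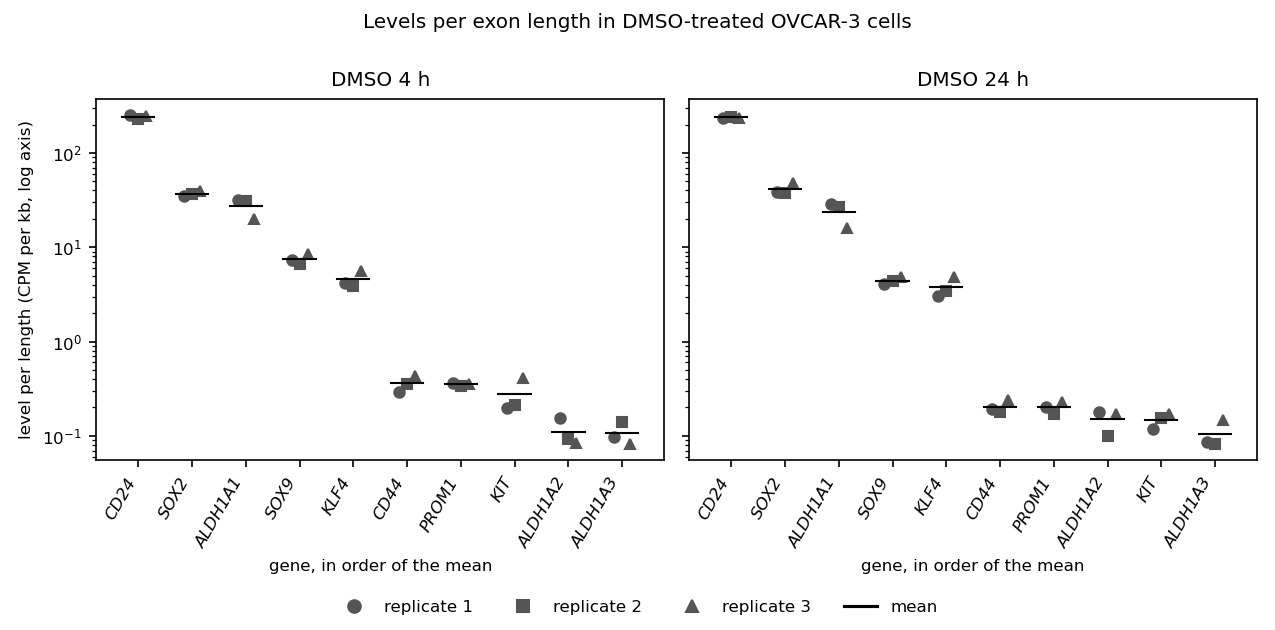
Levels per exon length (CPM per kb, log axis) of the 10 genes in the 3 DMSO libraries at 4 h and at 24 h, in order of the mean, with a symbol for each replicate and a line at the mean. CD24, SOX2, ALDH1A1, SOX9 and KLF4 lie above 3 CPM per kb in each library, and the other 5 genes below 0.5.

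A gene was called changed with a Benjamini-Hochberg adjusted p under 0.05 over all genes tested (edgeR's quasi-likelihood test). The fit had no term for the replicate number, and all 10 genes passed the filter on low counts in each comparison. After 4 h with i-BET858, 4 of the 10 changed, KLF4, SOX9 and CD24 upwards and SOX2 downwards, against 30.8% of all genes tested (14.5% higher, 16.3% lower). After 4 h with i-BET151, KLF4 rose and SOX2 fell, 2 of 10 against 16.2% of all genes (7.81% higher, 8.43% lower). After 24 h with i-BET858, SOX2, KLF4, KIT and CD24 rose and PROM1 fell, 5 of 10 against 41.7% (20.5% higher, 21.3% lower). After 24 h with i-BET151, SOX2, KIT and CD24 rose and PROM1, ALDH1A2 and ALDH1A1 fell, 6 of 10 against 33.8% (17.2% higher, 16.6% lower). The shares were thus 40, 20, 50 and 60% of only 10 genes, and nothing particular to the list is read from them. Of these, 2, 1, 2 and 3 genes changed by at least 2-fold, against 14.1, 7.1, 18.8 and 13.7% of all genes. The median log2 fold change of the 10 genes was 0.23, 0.06, 0.20 and -0.25 in the same order, and that of all genes 0.02, 0.01, -0.01 and 0.00. In total 8 of the 10 genes changed in at least 1 of the 4 comparisons and SOX2 in all 4, against 58.9% and 8.87% of the 16570 genes tested at both times, while CD44 and ALDH1A3 passed the test in none. Both drugs at a time point were compared with the same 3 DMSO libraries, so their results are given side by side and are not independent.

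**Figure D2:**
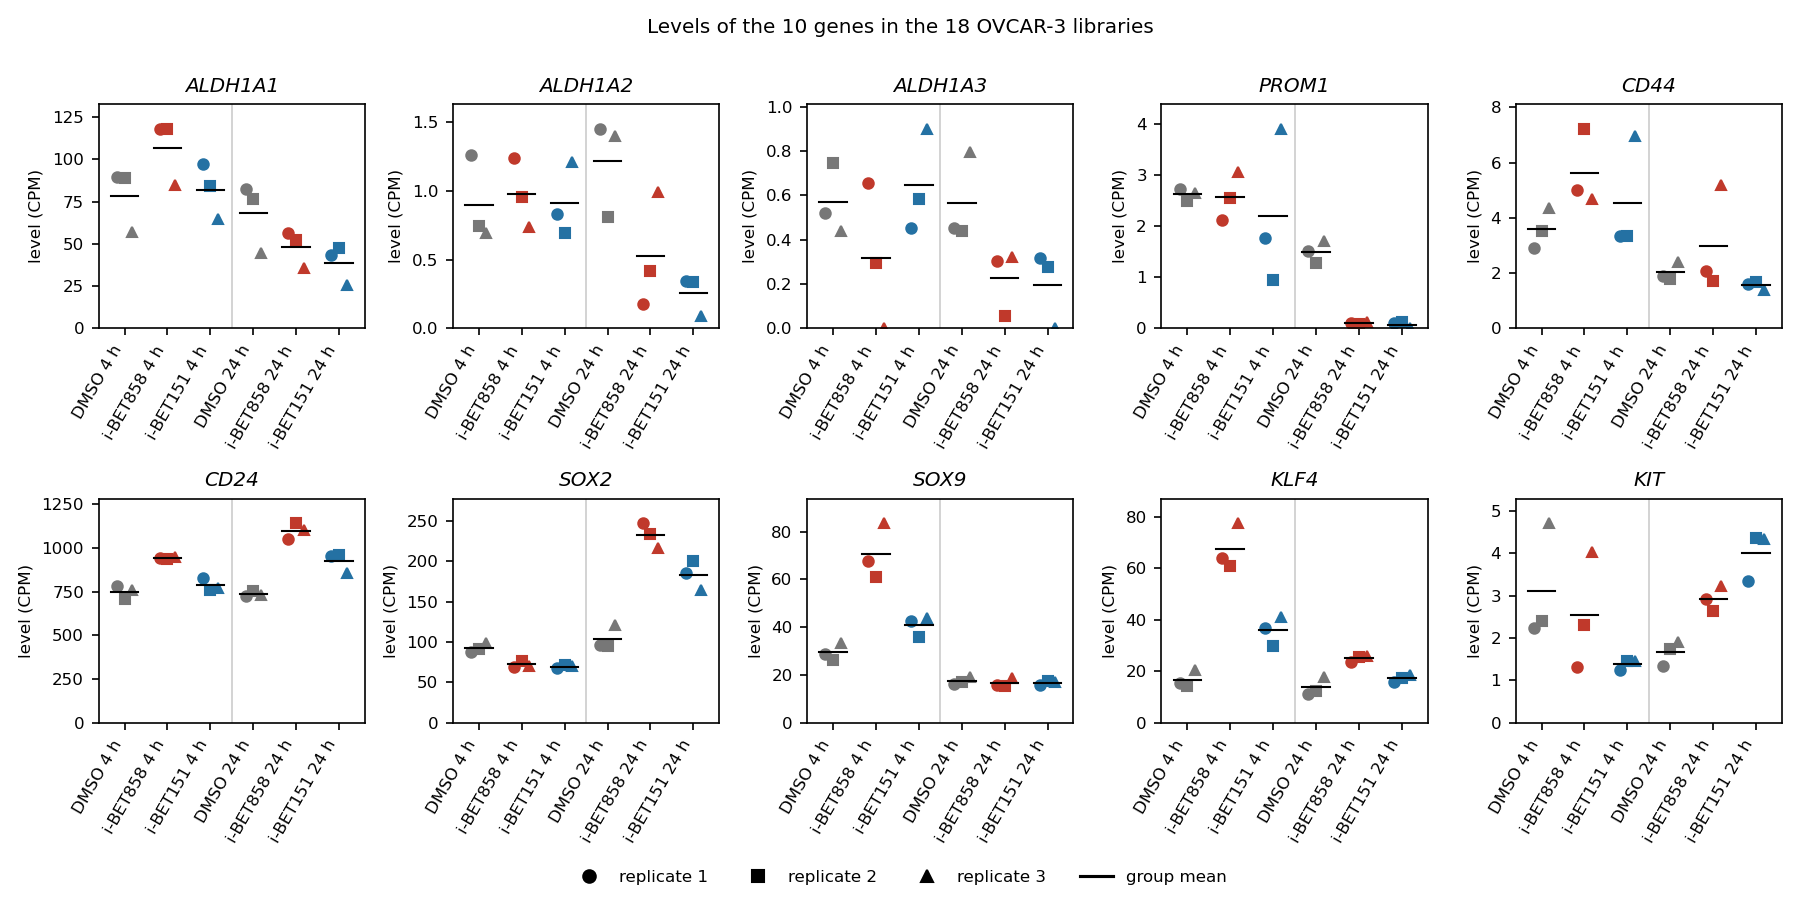
Levels (CPM, axes from 0) of the 10 genes in all 18 libraries, by group, with a symbol for each replicate and a line at the group mean. KLF4 and SOX9 stand highest in the i-BET858 libraries at 4 h, SOX2 and CD24 in those at 24 h, and PROM1 lies at or below 0.122 CPM in all 6 drug-treated libraries at 24 h.

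KLF4, a zinc finger transcription factor that also acts in epithelial differentiation, gave the largest rise among the 10 genes at 4 h. Its levels with DMSO were 15.4, 14.3 and 20.5 CPM in replicates 1, 2 and 3, against 64, 61 and 77.5 CPM after i-BET858 and 36.8, 29.8 and 41.3 CPM after i-BET151. The 3 groups did not overlap, and i-BET858 stood above i-BET151 in each. KLF4 rose by 2.02 on the log2 scale with i-BET858 (SE 0.18, 4.05-fold, adjusted p = 1.60e-05) and by 1.10 with i-BET151 (SE 0.18, 2.15-fold, adjusted p = 0.00185). At 24 h its levels were 11.2, 12.5 and 17.7 CPM with DMSO, 23.5, 25.5 and 26.1 after i-BET858 and 15.8, 17.5 and 18.5 after i-BET151. The i-BET858 libraries were above all DMSO libraries, while those of i-BET151 overlapped with DMSO replicate 3. The rise with i-BET858 was 0.82 (SE 0.18, 1.76-fold, adjusted p = 0.00344). With i-BET151 the difference was 0.30 (SE 0.18, adjusted p = 0.219), with 0.0587 when the replicate number was a block, 0.0115 without DMSO replicate 3 and 0.00488 in replicates 1 and 2 alone. The effect was smaller at 24 h than at 4 h, by -1.15 for i-BET858 (adjusted p = 0.00223) and by -0.78 for i-BET151 (adjusted p = 0.0463), the latter kept in 6 of 18 fits that left out 1 library (adjusted p 0.0207 to 0.134) and lost with only the groups compared (0.0729).

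SOX9, an HMG-box factor of progenitor cells in several epithelia, rose with i-BET858 at 4 h. At 4 h it measured 28.9, 26.3 and 33.4 CPM with DMSO, 67.7, 60.8 and 83.4 after i-BET858 and 42.6, 35.8 and 43.9 after i-BET151. All i-BET858 libraries exceeded all i-BET151 libraries, which in turn exceeded all DMSO libraries. SOX9 rose by 1.26 with i-BET858 (SE 0.16, 2.4-fold, adjusted p = 1.33e-04). With i-BET151 the difference of 0.46 (SE 0.16) had an adjusted p of 0.0678, which fell under the threshold with the replicate block (0.0023), in replicates 1 and 2 alone (0.50, 0.0259), in a fit of all 18 libraries (0.0244), with DESeq2 (0.0407), with at least 10 counts in every library (0.0492) and without i-BET858 replicate 3 (0.0429). At 24 h the 9 libraries lay between 15.3 and 19 CPM and the groups overlapped, with differences of -0.11 (i-BET858, adjusted p = 0.551) and -0.09 (i-BET151, adjusted p = 0.659). The i-BET858 effect changed by -1.33 from 4 to 24 h (SE 0.20, adjusted p = 9.76e-05) and the i-BET151 effect by -0.53 (SE 0.20, adjusted p = 0.0857, 0.0146 with the block, 0.0326 in replicates 1 and 2 alone and 0.0472 with at least 10 counts in every library).

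SOX2, an HMG-box factor of pluripotent and neural stem cells, changed in opposite directions at the 2 time points. At 4 h it measured 88.2, 91.2 and 99.3 CPM with DMSO, 69.5, 76.8 and 70.7 after i-BET858 and 67.5, 71 and 70.4 after i-BET151. Every drug-treated library lay below every DMSO library, and those of the 2 drugs overlapped. SOX2 fell by 0.36 on the log2 scale with i-BET858 (SE 0.11, adjusted p = 0.0255) and by 0.42 with i-BET151 (SE 0.11, adjusted p = 0.0209). Leaving out single libraries changed these calls. The adjusted p for i-BET858 was 0.0564 without DMSO replicate 2, 0.0813 without i-BET858 replicate 1, 0.09 without DMSO replicate 3, 0.0603 without i-BET858 replicate 3, 0.061 without i-BET151 in the fit, 0.0828 with no filter on low counts and 0.0725 in replicates 1 and 2 alone. For i-BET151 it was 0.0579 without DMSO replicate 2, 0.0943 and 0.0657 without i-BET151 replicates 1 and 2, 0.0843 without DMSO replicate 3 and 0.0593 with no filter.

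At 24 h, SOX2 measured 95.9, 95.3 and 121 CPM with DMSO, 247, 234 and 217 after i-BET858 and 186, 201 and 164 after i-BET151. The 3 groups were separate, with i-BET858 highest. SOX2 rose by 1.12 with i-BET858 (SE 0.13, 2.17-fold, adjusted p = 5.46e-05) and by 0.79 with i-BET151 (SE 0.13, 1.73-fold, adjusted p = 7.57e-04), in each fit that left out 1 library. The difference between the time points was 1.52 for i-BET858 (SE 0.16, adjusted p = 3.22e-06) and 1.23 for i-BET151 (SE 0.16, adjusted p = 9.01e-05).

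PROM1 encodes the membrane glycoprotein CD133 and gave the largest change of the 10 genes. Its counts at 24 h were 50, 38 and 54 with DMSO, 5, 3 and 4 after i-BET858 and 4, 4 and 0 after i-BET151. All drug-treated libraries were thus at or near the limit of 3 counts that a count of 0 allows, and far below the DMSO libraries. In CPM these were 1.51, 1.28 and 1.72 with DMSO, 0.109, 0.0834 and 0.117 after i-BET858 and 0.0976, 0.122 and 0 after i-BET151. PROM1 fell by 3.86 with i-BET858 (SE 0.79, 95% interval -5.61 to -2.12, adjusted p = 0.00257) and by 4.32 with i-BET151 (SE 0.82, 95% interval -6.13 to -2.51, adjusted p = 0.00227). Both calls were kept in each of 9 fits that left out 1 library, and in replicates 1 and 2 alone the values were -3.83 and -3.68. The intervals are wide, and the size of the fall is limited by the few counts left in the drug-treated libraries.

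At 4 h, PROM1 passed the test with neither drug. It measured 2.73, 2.5 and 2.66 CPM with DMSO, 2.12, 2.56 and 3.07 after i-BET858 and 1.77, 0.946 and 3.91 after i-BET151. The groups overlapped, and replicate 3 of i-BET151 stood above all other libraries. The differences were -0.02 (95% interval -0.98 to 0.93) and -0.25 (-1.20 to 0.71). In replicates 1 and 2 alone the i-BET151 difference was -0.95 (adjusted p = 0.0603). The effect differed between the time points by -3.79 for i-BET858 (SE 0.77, adjusted p = 0.00129) and by -4.04 for i-BET151 (SE 0.80, adjusted p = 0.00278), the latter by -3.36 without i-BET151 replicate 3 of 4 h and by -2.73 in replicates 1 and 2 alone.

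KIT, the receptor tyrosine kinase for stem cell factor, rose with both drugs at 24 h. At 24 h its levels were 1.33, 1.75 and 1.91 CPM with DMSO, 2.92, 2.64 and 3.22 after i-BET858 and 3.34, 4.35 and 4.34 after i-BET151. The 3 groups did not overlap, and here i-BET151 stood highest. KIT rose by 0.77 with i-BET858 (SE 0.26, 1.71-fold, adjusted p = 0.0328) and by 1.24 with i-BET151 (SE 0.26, 2.37-fold, adjusted p = 0.00372). The call for i-BET858 was lost without DMSO replicate 1 (adjusted p = 0.119) or 2 (0.0759), i-BET858 replicate 1 (0.0814), 2 (0.0538) or 3 (0.0663), i-BET151 replicate 2 (0.0511), with no filter on low counts (0.133), in a fit of all 18 libraries (0.0887) and without i-BET151 in the fit (0.0509).

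At 4 h the KIT levels were 2.24, 2.4 and 4.7 CPM with DMSO, 1.31, 2.3 and 4.03 after i-BET858 and 1.25, 1.45 and 1.46 after i-BET151. Replicate 3 was the highest of each group, and only the i-BET151 libraries lay below all of DMSO. The difference was -1.16 with i-BET151 (SE 0.44, adjusted p = 0.101, 0.0192 with the block and 0.0344 in a fit of all 18 libraries) and -0.28 with i-BET858 (SE 0.43, adjusted p = 0.679). For i-BET151 it was -0.79 in replicates 1 and 2 alone (adjusted p = 0.113). The i-BET151 effect on KIT was higher at 24 h than at 4 h by 2.43 (SE 0.52, adjusted p = 0.00494), and that of i-BET858 by 1.09 (SE 0.51, adjusted p = 0.127, 0.0363 with the block, 0.0246 without i-BET858 replicate 3 of 4 h and 0.0267 in replicates 1 and 2 alone).

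CD24, a small glycosylphosphatidylinositol-anchored surface protein of epithelial and ovarian cancer cells, was the most abundant of the 10 genes. At 4 h it measured 781, 709 and 757 CPM with DMSO, 943, 938 and 947 after i-BET858 and 826, 758 and 771 after i-BET151. The i-BET858 libraries were above all others, while i-BET151 overlapped with DMSO. CD24 rose by 0.34 with i-BET858 (SE 0.08, 1.26-fold, adjusted p = 0.0102), a call lost without DMSO replicate 2 (0.0503), with no filter on low counts (0.0847) and with total library size as the scale (0.18, adjusted p = 0.123). The difference with i-BET151 was 0.06 (95% interval -0.12 to 0.25, adjusted p = 0.666).

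At 24 h, CD24 measured 727, 752 and 733 CPM with DMSO, 1050, 1140 and 1100 after i-BET858 and 956, 957 and 859 after i-BET151. The 3 groups did not overlap, and i-BET858 was highest. CD24 rose by 0.53 with i-BET858 (SE 0.08, 1.44-fold, adjusted p = 3.76e-04) and by 0.30 with i-BET151 (SE 0.08, 1.23-fold, adjusted p = 0.0141). The latter call was lost without DMSO replicate 1 (0.0547), i-BET151 replicate 1 (0.0563) or 2 (0.0545), and with no filter on low counts (0.0686). Summing CD24 with its pseudogenes gave 0.33, 0.54 and 0.31 for the 3 calls, all still past the threshold. This sum holds only reads that were counted for CD24 or for a pseudogene.

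CD44, the hyaluronan receptor, passed the test in none of the comparisons when all 3 replicates were used. With DMSO it measured 2.92, 3.53 and 4.36 CPM at 4 h and 1.91, 1.79 and 2.39 at 24 h. With i-BET858 it measured 5, 7.22 and 4.69 CPM at 4 h, above all DMSO libraries, and 2.09, 1.72 and 5.18 at 24 h, where replicate 3 stood alone. The differences were 0.65 (SE 0.33, adjusted p = 0.169) and 0.52 (SE 0.41, adjusted p = 0.342). In replicates 1 and 2 alone they were 0.92 (adjusted p = 0.013) and 0.02 (adjusted p = 0.941). CD44 in the i-BET151 libraries measured 3.33, 3.35 and 6.97 CPM at 4 h and 1.61, 1.67 and 1.4 at 24 h, with differences of 0.34 (adjusted p = 0.554) and -0.40 (adjusted p = 0.501). The change of the i-BET858 effect on CD44 from 4 to 24 h was -0.09 (adjusted p = 0.932), and -0.88 in replicates 1 and 2 alone (adjusted p = 0.0467).

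The CD44 level relative to CD24, often used as a phenotype, was low throughout. The log2 ratio per length of CD44 over CD24 ranged from -9.75 to -9.13 with DMSO at 4 h and from -10.41 to -9.95 at 24 h. With the drugs at 4 h it ranged from -9.35 to -8.71 (i-BET858) and from -9.64 to -8.48 (i-BET151), overlapping with DMSO, and the mean in replicates 1 and 2 alone was -9.55 with DMSO, -8.98 after i-BET858 and -9.58 after i-BET151. With the drugs at 24 h it ranged from -11.05 to -9.42 (i-BET858) and from -10.95 to -10.85 (i-BET151), so the i-BET151 libraries and replicates 1 and 2 of i-BET858 lay below all DMSO libraries and i-BET858 replicate 3 above them. In replicates 1 and 2 alone the mean at 24 h was -10.34 with DMSO, -10.86 after i-BET858 and -10.88 after i-BET151. No test was made of this ratio.

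Of the ALDH1A enzymes, ALDH1A1 made up nearly all the transcript in these cells. Per length, it took 98 to 99.9% of the summed ALDH1A level in each library. Its levels at 24 h were 82.2, 76.8 and 44.8 CPM with DMSO, 56.2, 52.2 and 35.8 after i-BET858 and 43.5, 47.3 and 25.5 after i-BET151. Replicate 3 was the lowest of each group at both times, and DMSO replicate 3 overlapped with both drugs. ALDH1A1 fell by 0.83 with i-BET151 (SE 0.27, 1.78-fold lower, adjusted p = 0.035). The call was lost without DMSO replicate 1 (0.12) or 2 (0.106) and without i-BET151 replicate 1 (0.0556) or 3 (0.101), and had an adjusted p of 1.50e-05 with the replicate block.

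With i-BET858 at 24 h the ALDH1A1 difference was -0.53 (SE 0.27, adjusted p = 0.135). Within replicates 1, 2 and 3 the log2 ratio to DMSO was -0.55, -0.56 and -0.33, and the adjusted p was 4.32e-04 with the block, 7.50e-05 in replicates 1 and 2 alone and 0.0373 without DMSO replicate 3. At 4 h, ALDH1A1 measured 89.3, 88.7 and 56.7 CPM with DMSO, 118, 118 and 84.6 after i-BET858 and 97.1, 84.3 and 64.8 after i-BET151. The difference was 0.45 with i-BET858 (SE 0.21, adjusted p = 0.131, 6.42e-04 with the block and 0.017 in replicates 1 and 2 alone) and 0.06 with i-BET151 (SE 0.21, adjusted p = 0.88). The change of the effect from 4 to 24 h was -0.95 for i-BET858 (adjusted p = 0.0654, 1.63e-05 with the block and 8.82e-05 in replicates 1 and 2 alone) and -0.88 for i-BET151 (adjusted p = 0.129, 9.03e-05 with the block and 6.39e-04 in replicates 1 and 2 alone). The i-BET858 value also passed with DESeq2 (0.0227), with its size factors (0.0451), with at least 10 counts in every library (0.0336), with only the groups compared (0.0433) and in 3 of 18 fits that left out 1 library (lowest 0.022). With no filter on low counts ALDH1A1 passed with i-BET858 at 4 h (0.0296) and 24 h (0.00174) and in the change of both effects (3.05e-04 and 0.00179).

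ALDH1A2 and ALDH1A3, the other two enzymes of the group, had low counts. ALDH1A2 counts at 24 h were 48, 24 and 44 with DMSO, 8, 15 and 34 after i-BET858 and 14, 11 and 3 after i-BET151. The i-BET151 libraries lay below all DMSO libraries, and i-BET858 replicate 3 overlapped with DMSO. ALDH1A2 fell by 2.27 with i-BET151 (SE 0.76, 95% interval -3.94 to -0.60, adjusted p = 0.0393), kept in 2 of 9 fits that left out 1 library, those without i-BET858 replicates 1 and 3 (adjusted p 0.0231 to 0.109 over the 9). The difference with i-BET858 was -1.26 (SE 0.72, adjusted p = 0.191, and -2.01 with adjusted p = 0.00322 in replicates 1 and 2 alone). At 4 h its differences were 0.12 and 0.02, with intervals from -0.93 to 1.17 and from -1.03 to 1.07. The change of the i-BET858 effect from 4 to 24 h was -1.34 (adjusted p = 0.275), and -2.13 in replicates 1 and 2 alone (adjusted p = 0.015). That of i-BET151 was -2.27 (adjusted p = 0.0936, 0.0334 with DESeq2), and -1.38 in replicates 1 and 2 alone (adjusted p = 0.129).

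ALDH1A3 had 0 to 32 counts per library. At 24 h it had 15, 13 and 25 counts with DMSO, 14, 2 and 11 after i-BET858 and 13, 9 and 0 after i-BET151, a difference of -1.33 (95% interval -3.55 to 0.88) and -1.52 (-3.76 to 0.72). No change was called, and in CPM all drug-treated libraries at 24 h lay below all DMSO libraries. At 4 h the groups overlapped, with differences of -0.86 (-2.97 to 1.24) and 0.18 (-1.86 to 2.21). The i-BET858 value ranged from -1.95 to -0.27 on leaving out 1 library.

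**Figure D3:**
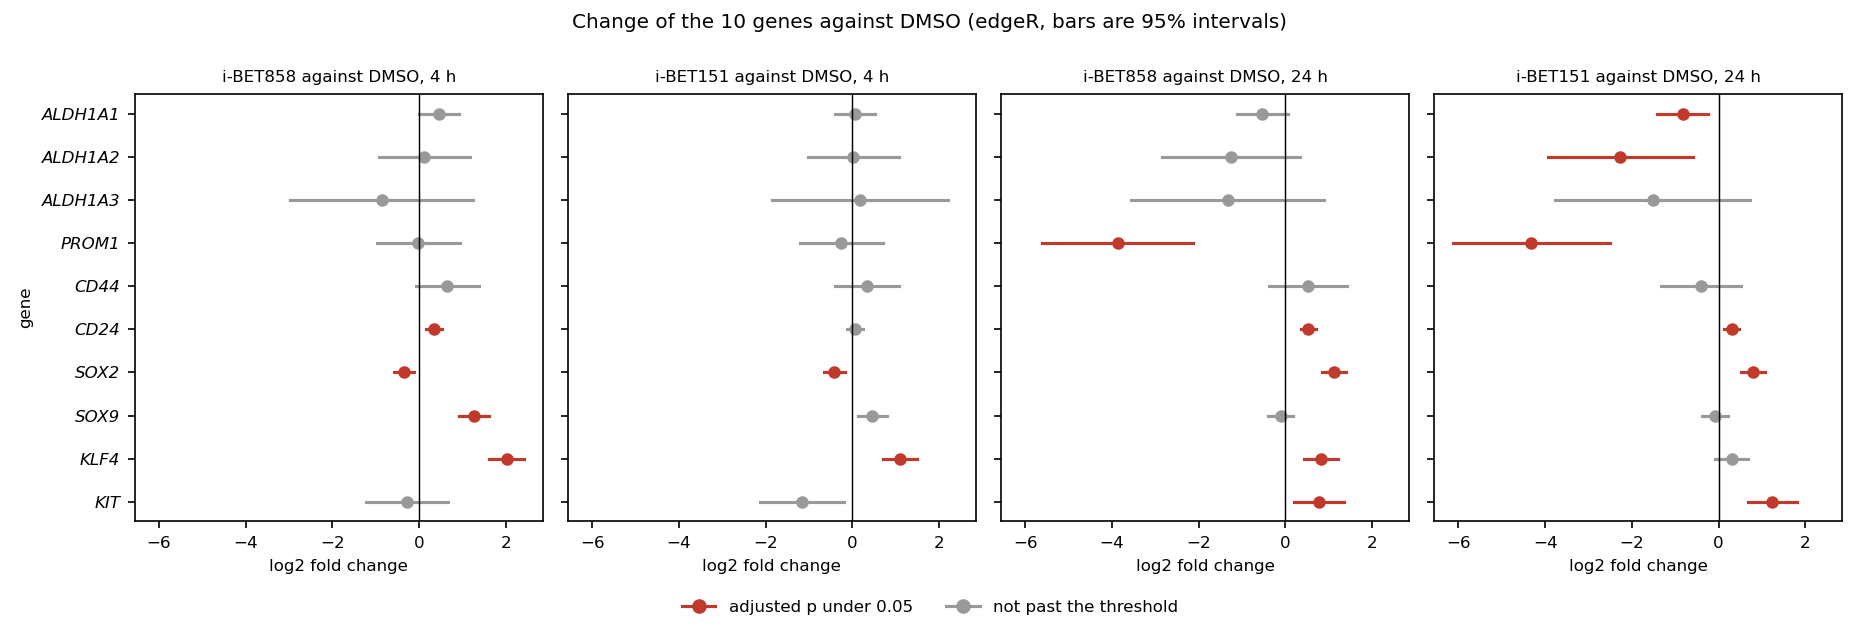
Log2 fold change against DMSO (edgeR) of the 10 genes in the 4 comparisons, with 95% intervals, red where the adjusted p is under 0.05. KLF4 and SOX9 lie highest at 4 h, PROM1 lies lowest at 24 h with both drugs, and at 24 h the intervals of ALDH1A2, ALDH1A3 and PROM1 are the widest.

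The drugs were then compared with each other at the same dose and time. At 4 h, 2 of the 10 genes were higher with i-BET858 than with i-BET151, against 0.971% of all genes tested that differed in either direction (0.413% higher, 0.558% lower, and 0.209% by at least 2-fold). KLF4 was higher by 0.91 (SE 0.18, 1.89-fold, adjusted p = 0.04) and SOX9 by 0.80 (SE 0.16, 1.74-fold, adjusted p = 0.04), in all 9 pairs of libraries for both. The adjusted p lay close to the threshold and was lost for both on leaving out any 4 h library other than DMSO replicate 3 (0.0613 to 0.174 for KLF4 and 0.0647 to 0.187 for SOX9), and when DMSO was left out of the fit (0.0914 and 0.102). With the replicate block it was 2.87e-04 and 3.62e-04, and CD24 (0.27, adjusted p 0.178 without and 0.0109 with the block) and ALDH1A1 (0.39, 0.532 and 0.0142) passed as well. SOX2 differed by 0.06 with an interval from -0.17 to 0.30. For PROM1 and CD44 the differences were 0.22 (-0.73 to 1.18) and 0.31 (-0.41 to 1.03), and for KIT 0.89 (-0.08 to 1.85).

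At 24 h, 0 of the 10 genes differed between the drugs by edgeR's adjusted p, against 0.21% of all genes (0.0933% higher, 0.117% lower, and 0.0641% by at least 2-fold). An unadjusted p under 0.05 was found for 4 of the 10 and for 11.4% of all genes. These 4 were higher with i-BET858 in all 9 pairs of libraries: KLF4 by 0.52 (0.13 to 0.90, adjusted p = 0.272), SOX2 by 0.33 (0.05 to 0.60, adjusted p = 0.336), CD24 by 0.23 (0.05 to 0.41, adjusted p = 0.291) and CD44 by 0.92 (0.01 to 1.83, adjusted p = 0.431). The CD44 difference rested on i-BET858 replicate 3, without which it was 0.28, and it was 0.23 in replicates 1 and 2 alone. KLF4 passed with the replicate block (0.0379), and KLF4 and SOX2 in replicates 1 and 2 alone (0.00989 and 0.0171). DESeq2 called 0. KIT was lower with i-BET858 in all 9 pairs, by -0.47 (-1.02 to 0.08, adjusted p = 0.549). The interval for SOX9 was narrow, from -0.32 to 0.27, and that for PROM1 wide, from -1.43 to 2.34. A p that misses the threshold does not show that the drugs act alike on these genes.

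**Figure D4:**
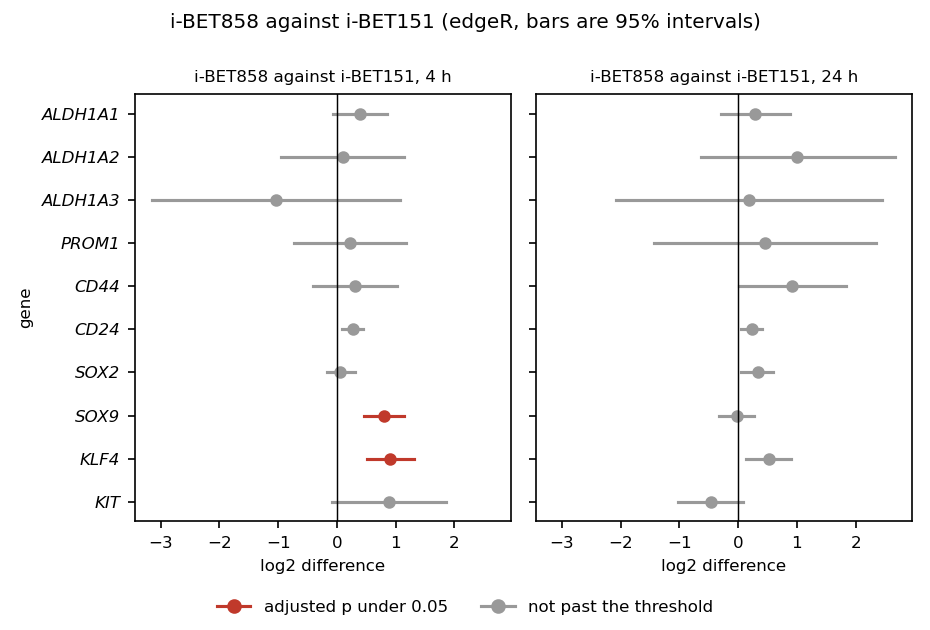
Log2 difference of i-BET858 from i-BET151 (edgeR) for the 10 genes at 4 h and 24 h, with 95% intervals, red where the adjusted p is under 0.05. KLF4 and SOX9 at 4 h are the genes past the threshold, and most other intervals include 0.

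The effect of each drug was also compared between the time points in a fit of all 18 libraries. For i-BET858 it changed in 4 of the 10 genes (SOX2 upwards, PROM1, SOX9 and KLF4 downwards) against 27.2% of all genes (14.6% higher, 12.6% lower, and 15.1% by at least 2-fold). For i-BET151 it changed in 4 (SOX2 and KIT upwards, PROM1 and KLF4 downwards) against 13.8% (6.99% higher, 6.82% lower, and 6.7% by at least 2-fold). The median of the 10 genes was -0.69 and -0.75, and that of all genes 0.00 and 0.01.

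Without drug, none of the 10 genes differed between 24 and 4 h of DMSO (0 by edgeR, 0.0386% of all genes, all lower, and 0.00551% by at least 2-fold). An unadjusted p under 0.05 was found for 3 of the 10 and for 9.17% of all genes. These were SOX9, from 26.3 to 33.4 CPM at 4 h to 16.2 to 19 at 24 h (-0.76, SE 0.14, adjusted p = 0.0682), CD44 (-0.83, SE 0.38, adjusted p = 0.526) and KIT (-0.90, SE 0.37, adjusted p = 0.432). For SOX9 the adjusted p was 0.0011 with the replicate block and 0.00172 with DESeq2, which each called this gene alone, 0.00637 with no filter on low counts and 0.0292 in replicates 1 and 2 alone. PROM1 was lower at 24 h in all 9 pairs (-0.80, adjusted p = 0.705).

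Genes of the pathways around the 10 were counted in the same way. Each list is set beside the share of all genes, which was 30.8 and 16.2% at 4 h and 41.7 and 33.8% at 24 h (i-BET858 first). The lists are short and were chosen with earlier results known, so nothing particular to them is read from these counts. Of the 16 other aldehyde dehydrogenase genes, which handle substrates such as amino acid and fatty aldehydes, 4 changed with i-BET858 and 2 with i-BET151 among 16 tested at 4 h, and 4 and 6 among 15 tested at 24 h. Their median was 0.40 and 0.23 at 4 h and 0.03 and 0.00 at 24 h. ALDH1B1, a mitochondrial enzyme that also acts on retinaldehyde, fell in all 4 comparisons, by 1.15 and 0.79 at 4 h and by 1.95 and 1.68 at 24 h (i-BET858 first), with the i-BET151 call at 4 h kept in 7 of 9 fits that left out 1 library (adjusted p 0.00613 to 0.0631). ALDH4A1, of proline breakdown, rose by 1.80 and 1.26 at 4 h and by 1.60 and 1.38 at 24 h. At 24 h ALDH3B2 fell by 1.72 and 1.58, and ALDH3A2, which oxidises fatty aldehydes, rose by 0.84 and 0.59. Both had adjusted p of at least 0.655 at 4 h.

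In the retinoid pathway, which makes, carries and reads the product of the ALDH1A enzymes, 16 of 21 genes were tested. With i-BET858 9 changed at 4 h (4 up, 5 down) and 8 at 24 h (2 up, 6 down), against 30.8 and 41.7% of all genes. With i-BET151 7 (3 up, 4 down) and 8 (2 up, 6 down) changed, against 16.2 and 33.8%. The median was 0.02 and 0.04 at 4 h and -0.31 and -0.40 at 24 h. The retinoic acid receptor gene RARG measured 75.6 to 95.1 CPM with DMSO at 24 h, 14.4 to 16.5 with i-BET858 and 21.5 to 22.8 with i-BET151. It fell by 2.53 (SE 0.11, adjusted p = 3.59e-07) and 1.99 (SE 0.11, adjusted p = 2.16e-06), after falls of 1.02 and 0.93 at 4 h.

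LRAT, which esterifies retinol for storage, rose by 3.21 and 2.43 at 4 h and by 2.62 and 2.0 at 24 h. RDH10, which makes retinaldehyde from retinol, rose by 2.24 and 1.59 at 4 h and by 0.92 and 1.09 at 24 h, and its exons overlap those of an antisense gene. CRABP2, which carries retinoic acid to its receptors, fell at 24 h by 0.97 and 0.48, after a rise of 0.42 with i-BET858 at 4 h that was lost with total library size (adjusted p = 0.0519).

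Among the ligands and partners of the surface proteins, 8 of 11 genes were tested, and 5 changed with each drug at 4 h, 3 with i-BET858 and 2 with i-BET151 at 24 h. The median was 0.42, 0.36, 0.30 and 0.09, and the shares of all genes changed were 30.8, 16.2, 41.7 and 33.8%. KITLG, the ligand of KIT, measured 2.52 to 3.92 CPM with DMSO at 4 h, 26.8 to 43.3 with i-BET858 and 12.2 to 23.3 with i-BET151. It rose by 3.57 and 2.49 at 4 h and by 2.16 and 1.66 at 24 h, with both drugs above DMSO in all 9 pairs of libraries at each time. Without DMSO replicate 3 the rises of KITLG at 24 h were 2.90 and 2.38. HAS3, which makes the CD44 ligand hyaluronan, rose by 4.22 and 3.26 at 4 h and by 1.54 with i-BET858 at 24 h, where i-BET151 gave 0.75 (adjusted p = 0.141, 0.0276 in replicates 1 and 2 alone). Exons of KITLG, HAS3 and ESRP2 overlap genes on the opposite strand, and those of ESRP2 also genes on the same strand. ESRP1 and ESRP2, splicing factors of the epithelial CD44 isoforms, fell at 4 h by 0.72 and 0.76 (ESRP1) and by 1.15 and 0.88 (ESRP2). At 24 h ESRP1 fell by 0.72 and 0.51, while ESRP2 gave -0.20 and -0.09 and passed with neither. For i-BET858 its adjusted p of 0.201 was 0.00985 in replicates 1 and 2 alone and 0.0431 with total library size.

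Of 21 other genes used as stem cell markers, 16 were tested, and 7 changed with i-BET858 and 5 with i-BET151 at 4 h, 12 and 11 at 24 h. The median was 0.12, -0.09, -0.55 and -0.26, and the shares of all genes changed were 30.8, 16.2, 41.7 and 33.8%. The chemokine receptor CXCR4 went from 0.37 to 0.879 CPM with DMSO at 24 h to 7.03 to 8.56 with i-BET858 and 3.98 to 4.25 with i-BET151. It rose by 3.73 and 2.81 at 24 h and by 3.93 and 2.42 at 4 h. ITGA6, an integrin subunit that binds laminin, rose by 1.41 and 1.18 at 24 h and by 0.74 with i-BET858 at 4 h, where i-BET151 gave 0.24 (adjusted p = 0.383). Its exons and those of MSI2 overlap genes on the opposite strand. The RNA-binding proteins MSI1 and MSI2 fell at 24 h, MSI1 by 2.56 and 1.58 and MSI2 by 1.80 and 1.03, while at 4 h MSI1 fell by 1.16 and 0.97 and MSI2 gave -0.05 with each drug. The i-BET151 call of MSI1 at 4 h was kept in 5 of 9 fits that left out 1 library (adjusted p 0.0142 to 0.137).

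Of 13 paralogues of the 10 genes, 7 were tested in the drug comparisons, with 3 changed at 4 h and 4 at 24 h for each drug. Among all genes 30.8 and 16.2% changed at 4 h and 41.7 and 33.8% at 24 h (i-BET858 first). The median was 0.88, 0.40, 0.62 and 0.50, and the 2 values at 24 h were the same with SOX8 at the bound given below. KLF2 rose by 2.43 and 2.09 at 4 h (3.08 and 2.76 without DMSO replicate 3) and by 2.85 and 2.49 at 24 h. KLF5 rose by 0.60 and 0.32 at 4 h and by 0.62 and 0.50 at 24 h. Its i-BET151 call at 4 h (adjusted p = 0.0467) was kept in 2 of 9 fits that left out 1 library (0.0466 to 0.161), and lost with total library size (0.0959) and in replicates 1 and 2 alone (0.0596). PROM2, the paralogue of PROM1, fell at 24 h by 2.0 and 1.60, and gave 0.36 and 0.25 at 4 h with adjusted p of 0.596 and 0.768. The i-BET151 call of PROM2 was kept in 6 of 9 such fits (adjusted p 0.00168 to 0.0626), and its value was -2.26 without i-BET151 replicate 3. SOX8, a paralogue of SOX9, had no count in the 3 DMSO libraries at 24 h, against 78, 50 and 26 after i-BET858 and 73, 29 and 23 after i-BET151. Against a floor of 3 counts over the DMSO group, the summed counts were at least 38.2-fold and at least 35-fold higher. This bound is relative to total counts without TMM, and covers counting error but not the spread between replicates. SOX8 was also higher at 4 h, with 1, 0 and 0 counts after DMSO, 84, 69 and 27 after i-BET858 and 85, 37 and 11 after i-BET151. The edgeR adjusted p at 4 h was 9.34e-04 and 0.00318.

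**Figure D5:**
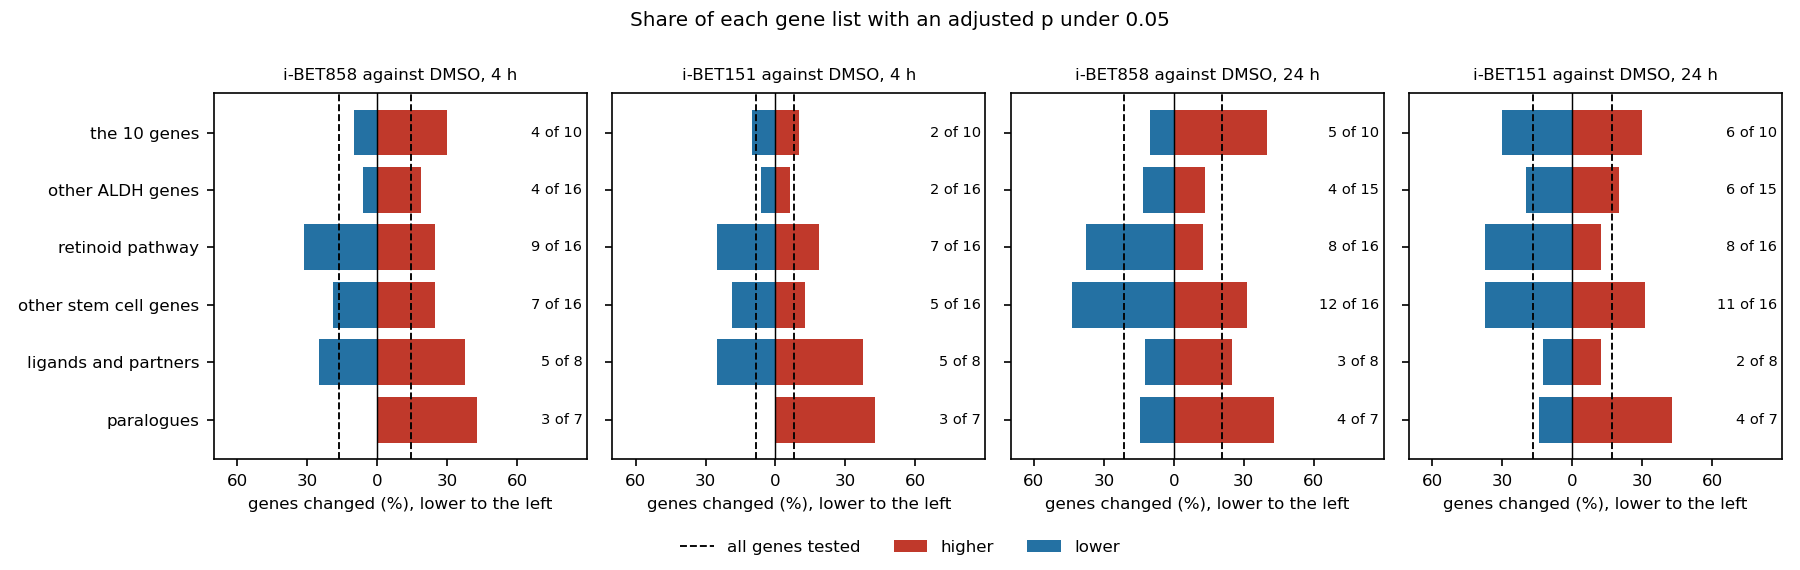
Share of the genes tested in each list that rose (right, red) or fell (left, blue) with an adjusted p under 0.05 in the 4 comparisons with DMSO, with the number changed of those tested at the right. Dashed lines mark the share of all genes tested in each direction, and with i-BET858 at 24 h these are 20.5% higher and 21.3% lower.

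The genes whose levels most resembled those of each of the 10 across the 18 libraries were found by Pearson correlation of log2 CPM among 11469 or 11470 genes. These values are descriptions, since the libraries share their treatments and depth. The nearest to KLF4 were ZFP36 (r = 0.993) and BCL6 (0.979), to SOX9 AMD1 (0.973) and ETS2 (0.967), and to SOX2 SEC22B (0.970) and PLEKHA8 (0.961). PROM1 was followed most closely by ANPEP (0.990) and SUSD4 (0.972), CD24 by CLDN6 (0.951) and PSMD2 (0.947), and ALDH1A1 by PDIA3 (0.951) and NARS1 (0.948). The other 4 genes had neighbours with r under 0.9, KIT with BTBD9 (0.867) and ASAP2 (0.859), CD44 with SGSH (0.898) and PI3 (0.896), ALDH1A2 with CTSS (0.888) and MYO3B (0.883), and ALDH1A3 with TFB1M (0.830) and PCOLCE2 (0.824).

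At 4 h, the summed level of the 8 epithelial markers was 8440 to 9930 CPM with DMSO, 11300 to 11900 after i-BET858 and 9520 to 10100 after i-BET151, and KRT8 and CDH1 rose with i-BET858, as did CD24. Of these markers KRT7, KRT8 and KRT18 fell and CDH1 rose with both drugs at 24 h. PAX8, WT1, MUC16 and EPCAM passed with neither drug at that time. The summed level of the 8 was then 8490 to 9990 CPM with DMSO at 24 h, 6620 to 7010 with i-BET858 and 6650 to 7170 with i-BET151. KRT8 weighed most in this sum, with 3208669 counts over all libraries against 716713 for KRT18, the next highest. Of the 8, 2 and 0 changed at 4 h and 4 and 4 at 24 h (i-BET858 first). The shares of all genes were 30.8, 16.2, 41.7 and 33.8%, and the median of the 8 was 0.31, 0.10, -0.18 and -0.10. Nothing particular to the markers is read from these counts. Fibroblast markers summed to 21.3 to 50.3 CPM over all libraries and endothelial markers to 0.578 to 5.37. Their part in the changes of the 10 genes was not tested.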

How the data were processed

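RNA-seq libraries of OVCAR-3 cells were taken as 2 deposited tables, one for each time point, of raw counts per gene, which the authors made from paired-end reads aligned to GRCh38 with STAR. The annotation, strand setting and versions are not given in the sources used here. Columns name treatment and replicate, and the time point came from the table. Of the identifiers, 58472 matched GENCODE 44, which gave symbols and exon lengths. Genes were filtered with filterByExpr, scaled by TMM and tested with edgeR 4.0.16 (quasi-likelihood test, Benjamini-Hochberg adjustment over all genes tested, threshold 0.05), per time point with all 3 groups, and over all 18 libraries for the change of effect and for DMSO over time. CPM used TMM factors of all 18 libraries. The pipeline was tested on simulated data with the same spread for all genes, no difference of replicate 3, and changes placed only in genes above a minimum level. That test does not cover changes in genes of low counts or the spread seen with replicate 3. The genes and lists were chosen with earlier results of these data known, and the text names all 10 genes and, from each other list, up to 4 of the changed genes with the smallest p over the 4 comparisons with DMSO. Genes of similar pattern were the 2 protein-coding genes with the highest Pearson correlation of log2 CPM, among those with an average of at least 1.

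The study describes 3 biological replicates. Same-numbered libraries deviated together (correlations of 0.125 to 0.344 at 4 h and 0.145 to 0.330 at 24 h, against -0.311 to 0.216 and -0.304 to 0.285 for other numbers, ranges that overlap). All same-numbered pairs were above 0.1, so the numbers were taken to pair the libraries. A blocked fit (replicate number as a term) is given where it changes a call. The main calls and counts come from the fit without this term, which ignores the pairing. Genes not called there can pass with the block, as ALDH1A1 did with i-BET858 at 24 h (edgeR adjusted p 0.135 without and 4.32e-04 with it). Alternatives were DESeq2 1.42.0, other scalings and filters, replicates 1 and 2 alone, and leaving out each library. CD24 summed with its pseudogenes was added after seeing the data. At 27323969 to 46299994 counts per library, 3 counts, the limit that a count of 0 allows, correspond to 0.0648 to 0.1098 CPM. This limit covers counting error only. The intervals given with fold changes come from the edgeR fit and include the spread between replicates.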

Additional observations from a re-analysis of the deposited data

Results flagged for a closer look

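The effect of a drug differed between 4 and 24 h, by the test of that difference in a fit of all 18 libraries (edgeR), in 8 cases. These were 4 of the 10 genes with each drug, against 27.2% (i-BET858) and 13.8% (i-BET151) of all genes tested. With i-BET858 the log2 effect on SOX2 was 1.52 higher at 24 h, and those on PROM1, SOX9 and KLF4 changed by -3.79, -1.33 and -1.15. With i-BET151 the effects on KIT and SOX2 were 2.43 and 1.23 higher at 24 h, and those on PROM1 and KLF4 changed by -4.04 and -0.78. The KLF4 value with i-BET151 had an adjusted p of 0.0463 and was kept in 6 of 18 fits that left out 1 library. For SOX2 the direction against DMSO was opposite at the 2 times, lower at 4 h and higher at 24 h with both drugs. The call of the fall at 4 h was kept in 5 of 9 fits that left out 1 library, with each drug. Groups of 3 libraries are too small for a test of single outlying values.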

How the results depend on the processing

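Of 27 calls over 90 results for the 10 genes, none reversed under an alternative, and 17 were kept in every fit that left out 1 library. The number of genes changed ranged on leaving out 1 library from 2 to 4 (i-BET858) and 1 to 3 (i-BET151) at 4 h, and from 4 to 6 and 3 to 6 at 24 h. It ranged from 0 to 2 between the drugs at 4 h, was 0 in all fits at 24 h and for DMSO over time, and ranged from 4 to 6 (i-BET858) and 3 to 4 (i-BET151) for the change of effect. With at least 2-fold as a further rule the counts were 2 and 1 at 4 h, 2 and 3 at 24 h and 0 between the drugs at 4 h. For i-BET151 at 4 h the count was 1 with no filter on low counts and 4 with the replicate block or in a fit of all 18 libraries. Between the drugs the replicate block gave 4 at 4 h and 1 at 24 h, the groups compared alone gave 0 at 4 h, and replicates 1 and 2 alone gave 2 at 24 h. For the change of effect the block gave 6 with each drug, and replicates 1 and 2 alone gave 8 (i-BET858) and 6 (i-BET151). The block and replicates 1 and 2 alone each gave 5 for i-BET858 at 4 h, and at 24 h they gave 6 and 7 for each drug. For i-BET858 at 4 h, total library size, no filter and only the groups compared lowered the count. At 24 h, only the groups compared and a fit of all 18 libraries lowered it for i-BET858. For DMSO over time DESeq2, no filter, the replicate block and replicates 1 and 2 alone each gave 1. Apart from the 2-fold rule, the share of all genes called under these settings is not given here. A rise in these counts is therefore not read as particular to the 10 genes. The causes were not tested.

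Results that were not called changed sign as follows. With total library size, ALDH1A2 at 4 h became -0.03 (i-BET858) and -0.04 (i-BET151), SOX2 between the drugs at 4 h -0.04, and ALDH1A3 and CD24 in DMSO over time 0.01 and 0.02. In replicates 1 and 2 alone, ALDH1A2 and ALDH1A3 with i-BET151 at 4 h became -0.39 and -0.31, and ALDH1A2, ALDH1A3 and PROM1 between the drugs at 24 h -0.24, -0.62 and -0.14. With no filter SOX9 between the drugs at 24 h was 0.00. In DMSO over time ALDH1A3 was 0.00 with DESeq2, with its size factors and with the groups compared alone, and 0.02 with the replicate block, and CD24 was 0.01 with at least 10 counts in every library. Leaving out 1 library gave these ranges. For i-BET151 at 4 h they were -0.12 to 0.21 (ALDH1A1), -0.24 to 0.34 (ALDH1A2), -0.15 to 0.42 (ALDH1A3), -0.11 to 0.52 (CD44) and -0.95 to 0.11 (PROM1). For i-BET858 at 4 h they were -0.09 to 0.44 (ALDH1A2), -0.78 to 0.13 (KIT) and -0.17 to 0.10 (PROM1). At 24 h they were -0.11 to 0.79 (CD44, i-BET858) and -0.14 to 0.00 (SOX9, i-BET151). Between the drugs they were -0.11 to 0.36 (ALDH1A2) and -0.13 to 0.93 (PROM1) at 4 h, and -0.36 to 0.74 (ALDH1A3), -0.07 to 0.96 (PROM1) and -0.11 to 0.03 (SOX9) at 24 h. For the change of the i-BET858 effect they were -1.05 to 0.63 (ALDH1A3) and -0.73 to 0.19 (CD44), and for DMSO over time -0.39 to 0.02 (ALDH1A1), -0.35 to 0.23 (ALDH1A3) and -0.06 to 0.01 (CD24).

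Total library size moved the median of all genes by -0.16 for i-BET858 at 4 h, with 32% of calls higher in place of 47.1%, and by -0.10 between the drugs at 4 h, with 16.6% in place of 42.5%. Under DESeq2's size factors the share higher between the drugs at 24 h was 76.9% in place of 44.4%. At 24 h ALDH1A2, ALDH1A3 and PROM1 had few counts, with 0 to 34 in the drug-treated libraries.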
